A study of Mus musculus with 4 samples.

Results

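The 9 genes described here encode eosinophil granule proteins (Epx, Prg2, Prg3), eosinophil-associated ribonucleases (Ear1, Ear2, Ear6) and receptors of the eosinophil surface (Siglecf, Ccr3, Il5ra). They were taken by symbol, as a named family, out of 17476 genes in the count table. Of these 9, 8 had a row, 7 passed the filter on low counts, and Il5ra had no row and was not analysed here. The libraries came from myeloid-derived suppressor cells (MDSCs), immature myeloid cells that restrain T cells, sorted from mouse tumours. Bone marrow of C57BL/6 mice (WT) or of Trem2 mutant mice was differentiated in culture, and the cells were injected into male NRG mice, an immunodeficient strain that lacks T, B and NK cells but keeps its own myeloid cells. The recipients were 6 weeks old when they received subcutaneous TRAMP-C1 cells, a mouse prostate cancer line; the MDSCs were given 4 weeks later and the tumours taken after 6 h. Both groups therefore share the host, the tumour and the sort for CD45, CD11B and GR1. They differ in the genotype of the injected cells, and their libraries also differ in sex-linked transcripts, given below. No marker in the gate separates injected cells from those of the recipient; what the Trem2 mutation changes was not given in the sources used here. Each genotype had 2 libraries, called here WT 1, WT 2, Trem2 mutant 1 and Trem2 mutant 3 after their column names. The number 3 matches no label, so that column is tied to the mutant group by its genotype alone. The labels do not tie the libraries to separate mice or cultures. The p-values therefore cover only the spread between these samples, and that spread may be technical.

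Eosinophils are granulocytes that store cationic proteins in large secretory granules. Epx encodes eosinophil peroxidase, Prg2 encodes major basic protein and Prg3 its homologue, and the Ear genes encode small secreted ribonucleases that multiplied in rodents into a family of close copies. Il5ra encodes the ligand-binding chain of the receptor for interleukin 5, the main growth and survival factor of the lineage; Ccr3 is the receptor for eotaxins, which draw eosinophils into tissue; Siglecf is an inhibitory sialic acid-binding lectin. Granule protein transcripts are made mostly while eosinophils mature in the bone marrow, under the transcription factors GATA1, C/EBP epsilon, C/EBP alpha and PU.1. Mouse eosinophils carry CD45 and CD11b and can bind GR1 antibodies weakly, so a CD11b and GR1 gate can hold some of them. Siglecf is also made by alveolar macrophages and by some tumour neutrophils, and Ear2 by nonclassical monocytes.

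Library totals were 8037733 to 10306674 reads. Trem2, the gene named by the genotype, had 406 and 477 reads in WT 1 and WT 2 and 191 and 195 in Trem2 mutant 1 and Trem2 mutant 3, a log2 fold change of −1.14 (SE 0.125, edgeR quasi-likelihood test, adjusted p = 0.00157). Gm42418, which lies over ribosomal RNA sequence, held 13.9% of the reads of Trem2 mutant 1 and 0.258% to 1.04% of those of the other libraries. Sex-linked transcripts separated the genotypes: Xist had 2 and 3 reads in WT 1 and WT 2 and 6928 and 9117 in Trem2 mutant 1 and Trem2 mutant 3, and the Y-linked Kdm5d had 374 and 365 against 51 and 55. Sex and genotype of the cells therefore cannot be told apart in what follows. Levels below are normalised read counts (CPM: reads scaled to a common library total, with totals adjusted by the trimmed mean of M-values, TMM).

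The ribonuclease genes are shown first as sequence, because their reads can be told apart only where the copies differ. The first stretch below is coding bases 181 to 255 of Ear1 with the aligned bases of Ear2, Ear6 and Ear10, a relative that had no row in the table; it is the 75-base coding window in which the copies are most alike, 75 being the number of sequencing cycles. Capitals mark bases that differ from Ear1 (GENCODE M21 transcripts, GRCm38, 5′ to 3′ on the coding strand).
Ear1: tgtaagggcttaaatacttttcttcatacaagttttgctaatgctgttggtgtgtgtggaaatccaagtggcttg
Ear2: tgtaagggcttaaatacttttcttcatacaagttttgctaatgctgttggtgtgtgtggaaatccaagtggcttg
Ear6: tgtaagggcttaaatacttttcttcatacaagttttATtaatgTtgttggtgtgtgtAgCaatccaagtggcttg
Ear10: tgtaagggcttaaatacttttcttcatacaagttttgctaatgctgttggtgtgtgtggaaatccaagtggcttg
A read from this stretch is the same letter for letter in Ear1, Ear2 and Ear10, while Ear6 differs at 5 bases. The second stretch, coding bases 268 to 342 of Ear1, is the window, among those in frame and without gaps, in which Ear2 differs from Ear1 most.
Ear1: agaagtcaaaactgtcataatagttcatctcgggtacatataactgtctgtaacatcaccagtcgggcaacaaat
Ear2: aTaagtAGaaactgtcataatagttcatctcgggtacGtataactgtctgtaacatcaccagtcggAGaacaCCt
Ear6: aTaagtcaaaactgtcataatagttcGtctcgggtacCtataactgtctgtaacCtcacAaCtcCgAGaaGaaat
Ear10: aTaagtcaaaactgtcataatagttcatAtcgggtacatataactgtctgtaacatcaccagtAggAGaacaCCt
Here Ear2 differs from Ear1 at 8 bases, Ear6 at 10 and Ear10 at 7. Over the coding sequence, Ear1 was 95.1% identical to Ear2 and 87.3% to Ear6, and Ear2 was 97.0% identical to Ear10. Of the 639 distinct 75-base words in the Ear1 transcripts, 39.3% also occurred in a transcript of another gene, most often the pseudogene Ear-ps9 (200 words) and then Ear10 (62) and Ear2 (53). Ear1 and Ear-ps9 also overlap in an exon on the same strand. For Ear2 the shared part was 23.4% of 645 words. None of the words of Ear6 or of the other 6 genes was shared with another annotated transcript. Values for Ear1 and Ear2 are therefore uncertain in how reads were split among the copies, and those for Ear6 are less exposed to this.

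The 250 bases before the start of Ear1 and Ear2 are shown because these promoters are almost the same (RefSeq promoters, GRCm38.p6). Capitals in Ear2 mark bases that differ from Ear1. The Ear1 stretch lies at chr14:43819640-43819889 on the minus strand and the Ear2 stretch at chr14:44102404-44102653 on the plus strand. The RefSeq start of Ear1 lies inside the GENCODE gene, far from the start of its longest transcript, in which the Ear1 stretch is intronic.
Ear1: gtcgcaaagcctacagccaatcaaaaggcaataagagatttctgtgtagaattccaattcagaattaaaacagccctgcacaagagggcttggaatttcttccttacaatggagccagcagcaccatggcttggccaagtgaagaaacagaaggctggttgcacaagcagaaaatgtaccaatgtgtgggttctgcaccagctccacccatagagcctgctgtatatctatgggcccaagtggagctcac
Ear2: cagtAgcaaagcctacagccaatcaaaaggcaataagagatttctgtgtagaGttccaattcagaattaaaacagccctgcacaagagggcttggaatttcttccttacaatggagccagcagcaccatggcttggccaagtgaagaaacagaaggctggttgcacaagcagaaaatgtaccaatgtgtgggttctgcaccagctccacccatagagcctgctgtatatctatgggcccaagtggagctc
Of 248 aligned bases, 246 were identical. The window before the RefSeq start of Ear6, further along chromosome 14, was 85.1% identical to that of Ear1; 69 of its bases are exonic in GENCODE, where Ear6 starts earlier. Promoters of Epx (chr11:87875537-87875786, minus strand) and Prg3 (chr2:84987965-84988214, plus strand) are shown as those of the granule genes that moved together; Prg2 had no promoter entry. Capitals mark a GATA match.
Epx: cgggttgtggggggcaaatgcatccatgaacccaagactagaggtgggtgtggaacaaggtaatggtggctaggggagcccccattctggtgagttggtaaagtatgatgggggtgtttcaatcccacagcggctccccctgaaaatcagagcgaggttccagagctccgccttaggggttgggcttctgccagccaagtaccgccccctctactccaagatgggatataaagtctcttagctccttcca
Prg3: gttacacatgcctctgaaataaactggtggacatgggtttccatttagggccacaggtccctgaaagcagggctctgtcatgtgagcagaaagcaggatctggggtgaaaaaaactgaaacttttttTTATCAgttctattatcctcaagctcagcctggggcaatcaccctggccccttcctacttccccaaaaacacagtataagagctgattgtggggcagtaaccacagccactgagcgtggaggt
Forms of the site bound by GATA factors were searched on both strands: AGATAA and TGATAA, which end in the same letter, as well as AGATAG and TGATAG, which end in the other. No other motif was searched. A match occurred in 3 of the 8 promoters with an entry: Prg3 (TGATAA on the minus strand, its first base 123 before the start), Il5ra (AGATAA, 74 before the start) and Ccr3 (AGATAG at 64 and AGATAA at 30 before the start). Among all 32851 promoters of that length, 26.5% held such a match, and a match in this window is a description of letters, not of binding.

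The granule protein genes were 5.32- to 6.77-fold higher in the mutant libraries. Epx (ENSMUSG00000052234, GRCm38 chromosome 11, 87864000 to 87875536, minus strand) had 65 and 38 reads in WT 1 and WT 2 and 261 and 267 in Trem2 mutant 1 and Trem2 mutant 3. In CPM these were 7.07 and 4.16 against 31.3 and 28.7, so the genotypes did not overlap and the mutant libraries were close to each other. The log2 fold change was 2.41 (SE 0.219, 95% interval 1.90 to 2.92, adjusted p = 6.57e-04). Prg2 (ENSMUSG00000027073, chromosome 2, 84980461 to 84983632, plus strand) had 72 and 39 WT reads and 284 and 355 mutant reads, or 7.83 and 4.27 CPM against 34.0 and 38.2 CPM. Its log2 fold change was 2.57 (SE 0.232, 95% interval 2.04 to 3.11, adjusted p = 6.50e-04). Prg3 (ENSMUSG00000027072, chromosome 2, 84988215 to 84993886, plus strand), which begins 4583 bases after the end of Prg2, was much rarer, with 3 and 2 WT reads and 16 and 18 mutant reads. Its mutant to WT ratio of summed reads was 7.06 (95% counting interval 2.75 to 23.1), and its call (log2 fold change 2.76, adjusted p = 0.0119) was lost without WT 1 (3.06, adjusted p = 0.0900) and without WT 2 (2.51, adjusted p = 0.0996). Summed over the 3 granule genes, the level went from 11.9 ± 4.65 CPM in WT to 68.0 ± 1.12 CPM in the mutant (SD, n = 2 per genotype), 5.70-fold higher.

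The granule genes kept similar proportions in every library. Prg2 had 1.03 to 1.33 times the reads of Epx in the 4 libraries. Prg3 made up 4.00% and 4.88% of the reads of Prg2 and Prg3 together in WT and 5.33% and 4.83% in mutant libraries. WT 1 was above WT 2 for Epx, Prg2, Prg3 and Ear2, by 0.58 to 1.31 on the log2 scale, and the summed granule level was 15.2 CPM in WT 1 and 8.65 CPM in WT 2. Without WT 1 the log2 fold change of Epx was 2.84 and that of Prg2 3.08; without WT 2 they were 2.08 and 2.20, and both calls held with each library left out in turn.

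Among the ribonucleases, Ear1 and Ear2 were rare and rose steeply, while Ear6 was abundant in both genotypes and rose 1.68-fold. Ear1 (ENSMUSG00000072601, chromosome 14, 43818765 to 43875517, minus strand) had 0 reads in WT 1 and WT 2, 19 in Trem2 mutant 1 and 25 in Trem2 mutant 3. Set against 3 counts over both WT libraries together, a floor of 0.164 CPM, it was at least 15.2-fold higher (adjusted p = 0.00367). The exact 95% counting interval of its ratio of summed reads began lower, at 11.9. With 1 WT library left out its call held, and the bound on the log2 scale fell from 3.93 to 2.92 without WT 1 and 2.93 without WT 2, since 3 counts then weigh against 1 library. Ear2 (ENSMUSG00000072596, chromosome 14, 44102654 to 44103534, plus strand) had 10 and 4 WT reads and 47 and 26 mutant reads, or 1.09 and 0.438 CPM against 5.63 and 2.79 CPM. The genotypes did not overlap, but the libraries of a genotype stood apart, by 1.31 in WT and 1.01 in mutant on the log2 scale. The log2 fold change of Ear2 was 2.43 (SE 0.535, adjusted p = 0.0246). That call was lost without WT 1 (3.21, adjusted p = 0.0545), without WT 2 (1.93, adjusted p = 0.114) and without Trem2 mutant 1 (1.86, adjusted p = 0.0536).

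Ear6 (ENSMUSG00000062148, chromosome 14, 51853699 to 51854643, plus strand) had 254 and 252 reads in WT and 435 and 382 in mutant libraries. These were 27.6 CPM in both WT 1 and WT 2 and 52.1 and 41.1 CPM in Trem2 mutant 1 and Trem2 mutant 3, so the WT libraries coincided and both mutant libraries lay above them. The log2 fold change of Ear6 was 0.75 (SE 0.135, 95% interval 0.44 to 1.06, adjusted p = 0.0113). The Ear6 call was lost without WT 1 (adjusted p = 0.0765) and without WT 2 (adjusted p = 0.0594), with the value at 0.75 in both. It was also lost when libraries were scaled by their totals alone (0.37, adjusted p = 0.0996), a scaling under which the median of all genes was −0.40 in place of −0.02. The upper bound of the Ear6 interval, 1.06, lay below the lower bounds of Epx (1.90) and Prg2 (2.04).

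Siglecf (ENSMUSG00000039013, chromosome 7, 43351341 to 43359531, plus strand), the inhibitory lectin, had the most reads of the family. It had 519 and 570 reads in WT and 707 and 1156 in mutant libraries, which gave 56.5 and 62.4 CPM against 84.7 and 124 CPM. The genotypes did not overlap, and the mutant libraries stood further apart than the WT libraries. Its log2 fold change was 0.82 (SE 0.168, 95% interval 0.43 to 1.21, adjusted p = 0.0189). Its call was lost without WT 1 (0.74, adjusted p = 0.120), without WT 2 (0.89, adjusted p = 0.0556) and under scaling by totals alone (0.46, adjusted p = 0.0525), and its value fell to 0.53 when Trem2 mutant 3 was left out, against 1.07 without Trem2 mutant 1.

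Ccr3 (ENSMUSG00000035448, chromosome 9, 124021972 to 124031689, plus strand), the eotaxin receptor, had 6 and 9 reads in WT and 9 and 10 in mutant libraries, too few for the filter. Its ratio of summed reads was 1.32 with a 95% counting interval of 0.633 to 2.78, so a difference of the size seen for Epx lay outside that interval and one of the size seen for Siglecf lay inside it. The levels of Ccr3 were 0.653 and 0.985 CPM for WT against 1.08 and 1.07 CPM for the mutant, with WT 2 close to the mutant libraries.

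**Figure D1:**
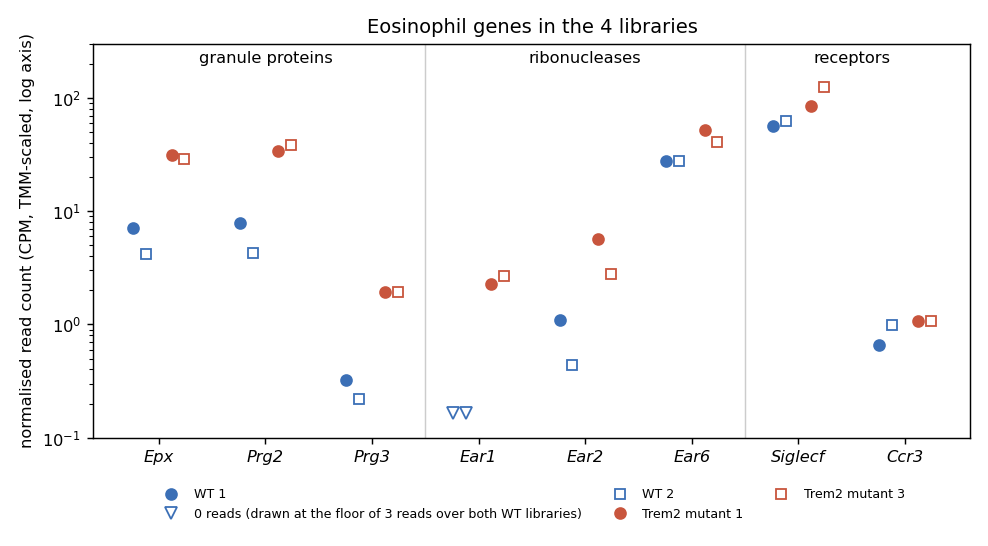
TMM-scaled CPM (log axis) of the 8 eosinophil genes with a row, one point per library: blue for WT, red for Trem2 mutant, filled circles for WT 1 and Trem2 mutant 1, open squares for WT 2 and Trem2 mutant 3. The granule genes and Ear2 have wide gaps between genotypes, Ear6 and Siglecf narrow ones at higher levels; Ear1 had 0 WT reads and is drawn as triangles at the floor of 0.164 CPM.

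Each of the 7 genes that passed the filter was called higher in the mutant libraries, where 9.55% of the 14239 genes tested were called higher and 3.60% lower. The 7 tested genes had both mutant libraries above both WT libraries, as did 28.9% of all genes tested. Ccr3, not tested, had this order as well, on 6 and 9 WT reads against 9 and 10 mutant reads. WT 2 and Trem2 mutant 1 had the same 9 reads, with fewer total reads in WT 2. The order of Ccr3 therefore depends on the TMM scaling. These counts of genes are a description and not support. Prg3 and Ear1 reached the filter minimum of 1.117 CPM (10 reads at the median library total) only in mutant libraries, and Ear2 in 1 WT library. Epx, Prg2, Ear6 and Siglecf reached it in all 4. No gene of the family was called lower by edgeR, DESeq2 or limma-voom, nor at an unadjusted p under 0.05. Without WT 1, 3 were called (3.25% of all genes tested there were higher), and without WT 2 also 3 (4.80%); these were Epx, Prg2 and Ear1 both times. There were 6 calls without Trem2 mutant 1 (9.98% higher), 7 without Trem2 mutant 3 (14.2%), 5 under scaling by totals alone (4.56% higher and 30.7% lower) and 6 with DESeq2 (7.47% and 1.39%). The median log2 fold change of the 7 genes was 2.43, also with Ear1 at its bound, against −0.02 over all genes tested. This median has the same limit as the counts. The genes at the filter minimum in all 4 libraries were at 2.41 (Epx), 2.57 (Prg2), 0.75 (Ear6) and 0.82 (Siglecf). In bulk libraries, more cells of a type and more RNA per cell cannot be told apart.

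**Figure D2:**
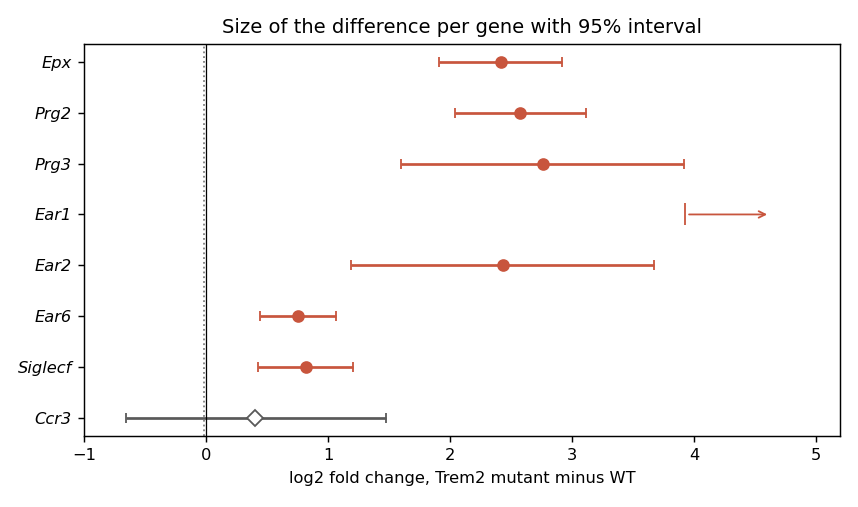
Log2 fold change (Trem2 mutant minus WT) of each eosinophil gene with its 95% interval: circles are edgeR estimates, the open diamond is the ratio of summed Ccr3 reads with its counting interval, the bar with an arrow is the lower bound for Ear1, and the dotted line is the median of all genes tested, −0.02. Intervals of Epx and Prg2 lie to the right of those of Ear6 and Siglecf.

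Per kilobase of annotated exon, which allows levels to be compared between genes, Ear6 and Siglecf led in WT libraries and Prg2 joined them in mutant libraries. In WT the order was Ear6 (29.2 ± 0.0341 CPM per kb), Siglecf (21.3 ± 1.505), Prg2 (7.22 ± 3.01), Epx (2.05 ± 0.752), Ear2 (1.06 ± 0.639), Prg3 (0.287 ± 0.0800) and Ccr3 (0.250 ± 0.0719), with Ear1 at 0 reads (SD, n = 2 each). Prg3 and Ccr3 did not differ beyond their spread. Epx was above Ear2 in WT 1 (2.58 against 1.51) and in WT 2 (1.52 against 0.609), though their SD ranges overlapped. In mutant libraries the order was Ear6 (49.3 ± 8.27 CPM per kb), Prg2 (43.1 ± 3.49), Siglecf (37.4 ± 10.02), Epx (10.95 ± 0.664), Ear2 (5.86 ± 2.79), Ear1 (3.40 ± 0.398), Prg3 (2.03 ± 0.0133) and Ccr3 (0.329 ± 7.40e-04). The first 3 of these overlapped between libraries. Ear2 was above Ear1 in Trem2 mutant 1 (7.83 against 3.12) and in Trem2 mutant 3 (3.89 against 3.68), though their SD ranges overlapped. Of all reads on the 8 genes, granule genes took 15.1% and 8.64% in WT and 31.6% and 28.6% in mutant libraries, and Siglecf took 55.9% and 62.4% in WT and 39.8% and 51.6% in mutant libraries.

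Genes listed as regulators of the granulocyte and eosinophil lineages, most of them transcription factors, went up in part. A place in the list does not say whether a gene favours or limits eosinophils. The list was put together with earlier results of these data known, and 5 of its 11 tested genes rose, with a median log2 fold change of 0.42. Of all genes tested, 9.55% were called higher. Cebpe, which drives the late granulocyte programme of neutrophils and eosinophils alike, had 93 and 97 WT reads and 256 and 160 mutant reads, a log2 fold change of 1.20 (SE 0.265, adjusted p = 0.0249). Xbp1, a secretory-pathway factor that eosinophil precursors need, rose from 201 to 371 CPM (log2 fold change 0.88, adjusted p = 0.00171). Klf5 (1.97, adjusted p = 0.0102), Trib1 (0.83, adjusted p = 0.0141) and Cebpb (0.42, adjusted p = 0.0246) also rose. Without WT 1 only Xbp1 was still called among the 11, and without WT 2 there were 3 calls, the calls of Cebpe and Cebpb being lost. Under scaling by totals alone Cebpb was at 0.04 (adjusted p = 0.853). The GATA factors were scarce: Gata1 had 4 and 2 WT reads and 8 and 7 mutant reads, below the filter, and Gata2 had 37 and 29 against 44 and 40 reads (0.41, adjusted p = 0.366).

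The genes of receptor signalling for interleukin 5, interleukin 3 and GM-CSF gave 1 call among 12 tested, a share near the 9.55% of all genes called higher, with a median log2 fold change of 0.24; 6 were higher at an unadjusted p under 0.05, and DESeq2 called 1 and limma-voom 2. Csf2rb, the signalling chain that pairs with the interleukin 5 receptor alpha chain, went from a mean of 1751 CPM to 2154 CPM (log2 fold change 0.30, adjusted p = 0.112). Pim1, a kinase gene induced through STAT5, rose from 1300 to 2075 CPM (0.67, adjusted p = 0.0272), a call lost without WT 1 (0.54), without WT 2 (0.82) and with library totals alone (0.32). Stat5b (0.28, adjusted p = 0.0864) and Lyn (0.26, adjusted p = 0.0952) did not pass. Without Trem2 mutant 3, 5 genes of this list were higher, where 14.2% of all genes were. Of 12 growth factor and chemoattractant genes, 5 had a row, and Il5, the eotaxin gene Ccl11 and 5 others did not. Ccl7, a chemokine that also binds CCR3, had 62 and 73 WT reads and 136 and 169 mutant reads (1.23, adjusted p = 0.00451), the only call among 4 tested, while the eotaxin gene Ccl24 had 5 reads in each WT library and 8 and 5 in the mutant libraries.

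Other surface and enzyme genes of eosinophils moved in both directions. Of 11 tested, 3 rose and 1 fell, the median being −0.08 on the log2 scale. Over all genes tested, 9.55% were called higher and 3.60% lower, against 4.56% and 30.7% under scaling by totals alone. The 3 that rose are made widely by myeloid cells: Siglece (0.67, adjusted p = 0.00186), Alox5ap (0.61, adjusted p = 0.00487) and Pilra (0.65, adjusted p = 0.00586). Under scaling by totals alone none of the 11 was called higher and 4 were lower, and without WT 2 only 1 was higher. Ffar2, a receptor for short-chain fatty acids, fell (−0.40, adjusted p = 0.0160), a call lost without WT 1 (−0.39), without WT 2 (−0.41) and with DESeq2 (−0.39). Alox15, a lipoxygenase abundant in eosinophils, had 10 and 6 WT reads and 9 and 11 mutant reads, and Ptgdr2, the prostaglandin D2 receptor CRTH2, had 42 and 49 against 33 and 50 reads; neither passed (adjusted p = 0.634 and 0.865). Of 3 tested relatives of the ribonucleases, Rnase4 rose from 23.8 to 40.3 CPM (0.76, adjusted p = 0.00507, not called with library totals alone at 0.38) while Rnase6 (0.64, adjusted p = 0.415) and Ang (0.12, adjusted p = 0.835) did not pass. The relatives Ear10, Ear14, Rnase2a and Rnase2b had no row.

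**Figure D3:**
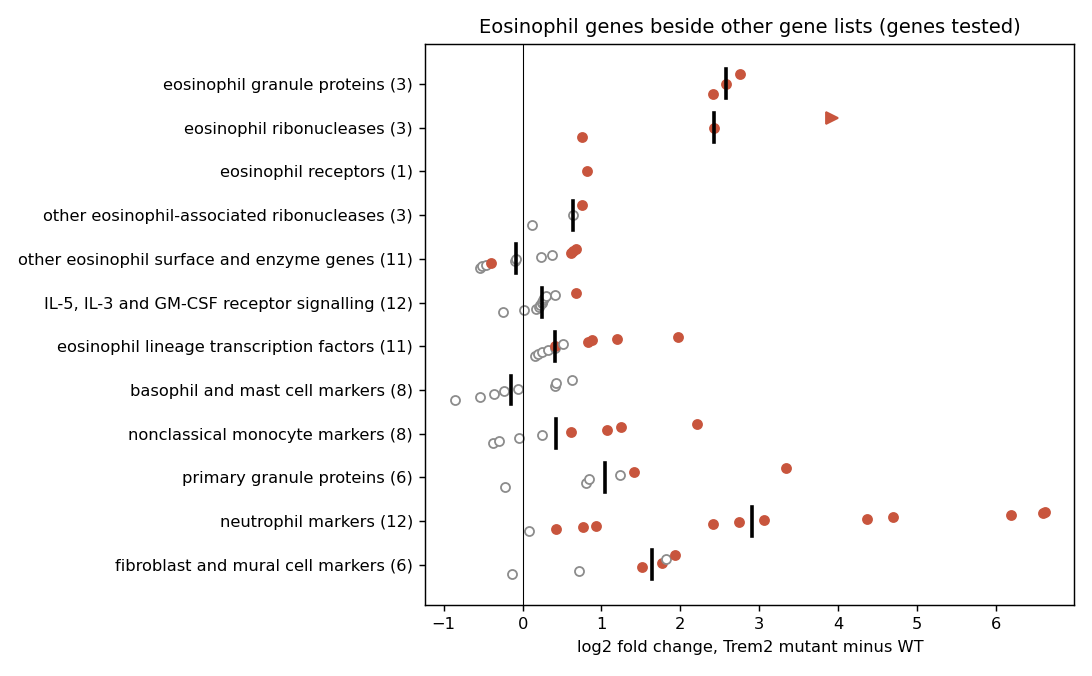
Log2 fold change (Trem2 mutant minus WT) of the tested genes in 12 lists of eosinophil genes and of markers of other cells, with the number tested in brackets; filled points passed the threshold, open points did not, black bars are list medians, height within a row has no meaning, and the triangle is the lower bound for Ear1. The granule genes lie between 2.41 and 2.76, while the neutrophil markers spread widely around a median of 2.91.

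Markers of other cells moved in the same libraries, and their part in the values above was not tested. The counts of called markers stand beside 9.55% of all genes tested called higher and 3.60% called lower. Of 12 neutrophil markers, all tested and none at 0 reads, 11 rose, with a median of 2.91, and their summed level was 7268 to 7398 CPM in WT against 26652 to 31822 CPM in the mutant. Ly6g, whose product the GR1 antibody binds, had 52 and 66 WT reads and 1198 and 1143 mutant reads. Of 6 tested genes of primary granules, which neutrophil and eosinophil precursors both begin to fill, 2 rose (summed level 3555 to 3618 CPM in WT against 3059 to 3124 CPM in the mutant, nearly all Lyz2). Mpo, the neutrophil peroxidase related to Epx, had 50 and 85 WT reads and 217 and 127 mutant reads (1.42, adjusted p = 0.0362, lost without WT 1 at 1.08 and with limma-voom at 1.38). Elane, a neutrophil elastase gene, had 7 and 5 against 81 and 37 reads (3.35, adjusted p = 0.00862; 2.59 without Trem2 mutant 1). Mpo and Elane were higher in Trem2 mutant 1 than in Trem2 mutant 3, whereas Epx and Prg2 differed between those libraries by −0.12 and 0.17 on the log2 scale. Ear2, by contrast, was lower in Trem2 mutant 3 than in Trem2 mutant 1, by −1.01 on the log2 scale. Basophil and mast cell markers, which share several receptors with eosinophils, gave no call in either direction among 8 tested by edgeR, DESeq2 or limma-voom, with 1 gene (Hdc) higher at an unadjusted p under 0.05, a median of −0.15 and a summed level of 659 to 1083 CPM in WT against 1235 to 1289 CPM in the mutant, mostly Hdc and Kit. Under scaling by totals alone, 3 of these 8 were called lower, where 30.7% of all genes tested were.

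Some of the cells that make Ear2 or Siglecf without being eosinophils were looked at through their own markers. Tumour neutrophils that make Siglecf had no list of their own and were not looked at. The counts below again stand beside 9.55% of all genes tested called higher and 3.60% called lower. Under scaling by totals alone, 4.56% of all genes tested were called higher and 30.7% lower. Of 8 tested nonclassical monocyte markers 4 rose, with a median of 0.43 and a summed level of 569 to 618 CPM in WT against 934 to 1271 CPM in the mutant. Ace, a defining marker, had 2 and 7 WT reads and 24 and 17 mutant reads (2.22, adjusted p = 0.0411), a call lost without WT 1 (1.59), without WT 2 (3.34), without Trem2 mutant 1 (1.88) and with DESeq2 (2.27), and Treml4 had 98 and 158 against 88 and 103 reads. Without WT 1 or WT 2, 2 markers of this list rose. Of 10 alveolar macrophage markers, Marco, Krt79, Krt19 and Fabp1 had no row and 3 of 5 tested rose: Chil3, which neutrophil precursors also make (4.43, adjusted p = 2.92e-05), Car4 (1.23, adjusted p = 2.63e-04) and Pparg (1.56, adjusted p = 0.00408). The summed level of that list, 399 to 429 CPM in WT against 3397 to 4760 CPM in the mutant, was mostly Chil3 in the mutant libraries. Of 10 monocyte and macrophage markers 5 rose, among them Ly6c2 (3.67, adjusted p = 2.35e-05), with a summed level of 1778 to 1838 CPM in WT against 1852 to 2126 CPM in the mutant; 2 rose without WT 1. Csf1r (−0.28, adjusted p = 0.0784), Cd68 (−0.31, adjusted p = 0.0864) and Adgre1 (−0.20, adjusted p = 0.150) had both mutant libraries below both WT libraries and an unadjusted p under 0.05; limma-voom called 1 marker of this list lower, and scaling by totals alone 3. Of 6 tested fibroblast and mural cell markers 3 rose, with a summed level of 170 to 226 CPM in WT against 458 to 505 CPM in the mutant. The collagen gene Col1a2 was higher in WT 1 (48.1 CPM) than in WT 2 (35.6 CPM), the same order as Epx and Prg2. Col3a1, Col1a1, Pdgfrb and Acta2 shared this order. Dcn (0.435 and 1.42 CPM) and Pdgfra (0.435 and 0.766 CPM) had the opposite order, and Lum had 2 reads in each WT library. Acta2 was lower in both mutant libraries than in WT (−0.13, not called).

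Of the nearest genes outside the family on either side of an eosinophil gene, Mks1 and Siglecg passed the test. Mks1, a cilium gene on the opposite strand whose end lies 197 bases from the end of Epx, had 47 and 30 WT reads and 14 and 11 mutant reads, a log2 fold change of −1.56 (SE 0.379, adjusted p = 0.0350), opposite to Epx. The Mks1 call was lost without WT 1 (−1.20, adjusted p = 0.250), without Trem2 mutant 3 (−1.30, adjusted p = 0.0699) and with DESeq2 (−1.54, adjusted p = 0.105). How the counting treated strand was not given in the sources used here. In GENCODE M21 these genes do not overlap, so only reads of transcripts that ran past a gene end could be assigned to the other gene. Whether there were such reads was not tested. On the other side of Epx, Dynll2 was at −0.15 (adjusted p = 0.543). Prg2 and Prg3 lie side by side; before them Slc43a3 was at −0.12 (adjusted p = 0.545) and after them P2rx3 at −0.75 (adjusted p = 0.258). Mettl17, 30.2 kb after Ear6, was at −0.11 (adjusted p = 0.620). Siglecg, a B cell and myeloid lectin gene 48.7 kb after Siglecf, rose (0.58, SE 0.126, adjusted p = 0.0227), a call lost without WT 1 (0.47), without WT 2 (0.70) and with library totals alone (0.21), while Zfp715 on the other side was at −0.12 (adjusted p = 0.603). Ccr2, 70.3 kb after Ccr3, was at 0.15 (adjusted p = 0.601).

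**Figure D4:**
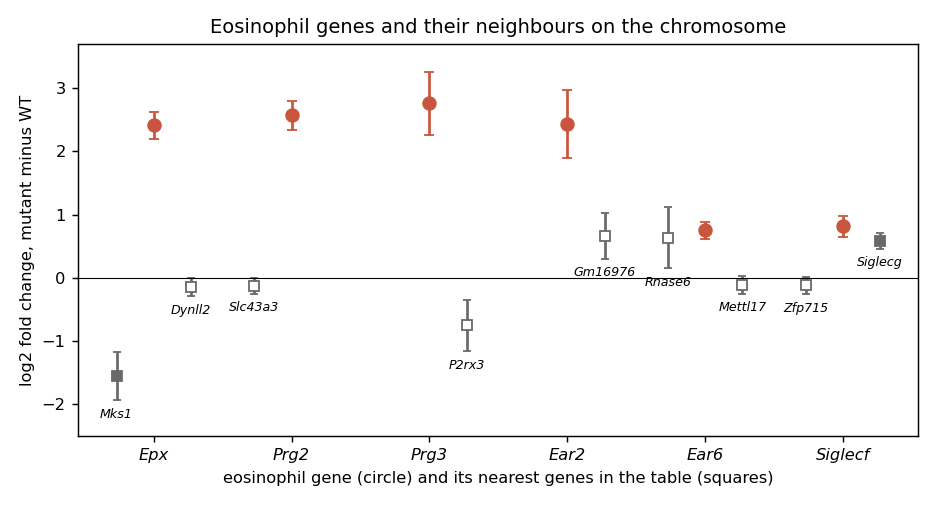
Log2 fold change (Trem2 mutant minus WT) of 6 eosinophil genes (circles) and of the nearest genes outside the family with a row on each side (squares, filled where called), with bars of 1 SE. Mks1 lies at −1.56 beside Epx at 2.41, and Siglecg is the 1 neighbour drawn that was called higher.

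Over the 4 libraries, the 5 genes outside the family whose centred log2 CPM profile lay nearest to the mean profile of the 7 tested eosinophil genes, among 14072 compared by Euclidean distance, were Yap1, Elovl7, Col1a2, Tnc and Fbn1, at distances of 0.0986 to 0.143. Yap1, a transcriptional co-activator, had 168 and 127 WT reads and 444 and 501 mutant reads, and the matrix gene Tnc 83 and 74 against 260 and 272 reads. Within the family, Prg3 lay nearest to that mean profile (0.171) and Siglecf furthest (1.14). Profiles were log2 of CPM plus 0.5, which makes the differences of rare genes such as Prg3 and Ear1 smaller than their fitted values. The distances and the order of the genes therefore depend on that added value.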

How the data were processed

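RNA of 2 WT and 2 Trem2 mutant libraries of sorted tumour MDSCs was depleted of ribosomal RNA and run for 75 cycles, per the labels' protocols. The authors deposited unnormalized read counts, 1 row per Ensembl gene. FastQC, STAR 2.5.2a, DESeq2 and the build GRCm38 (mm10) are named in the submitters' processing notes; counter, strand setting and annotation release were not given in the sources used here. Genes in the table had at least 11 reads over the 4 libraries. Of 17476 IDs, 17422 matched GENCODE M21.

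Counts were analysed in R 4.3.3 with edgeR 4.0.16: filterByExpr (14239 genes), TMM, and the quasi-likelihood test of mutant against WT (glmQLFit, legacy form, 2 residual and 5.71 prior degrees of freedom), with Benjamini-Hochberg adjustment over all genes at 0.05. SE is the log2 fold change over the root of F. CPM use TMM-scaled totals; 3 counts were 0.322 to 0.359 CPM per library, and floors and counting intervals (exact, 95%) cover counting error only. Paired libraries were not duplicates (their median squared difference was 2.01 times sampling noise in WT and 6.20 times in mutant) and each counted as 1 sample. The test was checked on simulated counts. The members, gene lists and alternatives were chosen with earlier results of these data known. Named genes were the members, Trem2, up to 4 genes per list by p, the nearest genes on each side in the table, and the 5 nearest profiles. Outside this rule, Gm42418, Xist, Kdm5d, Cebpe, Csf1r, Cd68, Adgre1, Gata1, Gata2, Alox15, Ptgdr2, Treml4, Kit, Lyz2, Ccl24, Pdgfrb, Pdgfra, Lum and Acta2 were picked once their values had been seen. The alternatives for scaling were RLE, upper quartile or no scaling beyond library totals. Those for the filter were no filter or at least 10 reads in 2 libraries with a mean of 1 CPM. Other methods were DESeq2 1.42.0, limma-voom (limma 3.58.1) and the bias-adjusted fit. A further alternative left out 4428 genes that were mitochondrial or not annotated as protein coding. Unmatched IDs and immunoglobulin and T cell receptor genes stayed in. Each library was also left out, with the lone library of a genotype taken to vary as the other genotype did.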

Additional observations from a re-analysis of the deposited data

How the results depend on the processing

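The number of eosinophil genes called higher ranged from 3 to 7 with 1 library left out: 3 without WT 1 and 3 without WT 2, 6 without Trem2 mutant 1 and 7 without Trem2 mutant 3. The shares of all genes called higher with 1 library left out are given above beside the same counts. The number of eosinophil genes called higher was 5 with library totals alone (4.56% of all genes) and 6 with DESeq2 (7.47%), where Prg3 got no adjusted p. It was 7 in each other setting run, where 7.65% to 11.7% of all genes were higher. The number called lower was 0 throughout. Epx, Prg2 and Ear1 kept their call and direction in all 13 alternatives. Ear1 had 0 WT reads and reached the filter minimum only in mutant libraries, so its direction could only be higher. The log2 ratio of the summed granule level, 2.51, ranged from 2.16 to 2.97 with 1 library left out and was 2.14 with library totals alone. Over all genes, 1360 were higher and 513 lower, against 650 and 4365 with library totals alone and 1063 and 198 with DESeq2; they were 489 and 92 without WT 1, 719 and 129 without WT 2, and 2090 and 912 without Trem2 mutant 3. The causes were not tested. No paired analysis was possible because the columns of the 2 genotypes share only the number 1, and the mutant column numbered 3 cannot be tied to a numbered label. With 2 libraries per genotype and at most 15 reads in both WT libraries together, Prg3, Ear1, Ear2 and Ccr3 are limited by depth.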

Other observations

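Transcripts of the globin genes stood apart between libraries of the same genotype. Hbb-bs, a beta globin gene, had 32 and 156 reads in WT 1 and WT 2 and 317 and 1022 in Trem2 mutant 1 and Trem2 mutant 3. WT 1 was therefore lowest here, where it was the higher WT library for Epx and Prg2. Among all genes tested, edgeR called 9.55% higher. Of 5 erythroid markers tested 3 rose (1 with DESeq2 and 1 without WT 1), and their summed level was 17.8 to 40.0 CPM in WT against 73.9 to 183 CPM in the mutant. The call of Hbb-bs (log2 fold change 2.85, edgeR adjusted p = 0.0268) was lost without WT 1 (2.12) and with DESeq2 (2.86). Its value was 4.41 without WT 2 and 1.90 without Trem2 mutant 3.

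Of 5 megakaryocyte and platelet markers none was called by edgeR, DESeq2 or limma-voom (1, Pf4, was higher at an unadjusted p under 0.05). Their summed levels were 48.6 to 55.1 CPM in WT against 49.3 to 61.0 CPM in the mutant. With library totals alone 2 were lower, where 30.7% of all genes tested were. The epithelial markers differed in direction, and 2 were tested. Krt18 had 18 and 20 WT reads and 19 and 24 mutant reads (log2 fold change 0.23, edgeR adjusted p = 0.680), and Krt8, not tested, had 0 and 2 against 5 and 5. Cdh1, the E-cadherin gene, which some myeloid cells also make, fell from 155 to 83.8 CPM (log2 fold change −0.88, SE 0.0782, edgeR adjusted p = 6.35e-04), a call kept in every alternative run.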
